A study of Mus musculus with 6 samples.

Results

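Nicotinic acetylcholine receptor subunits and the genes that build the motor endplate were examined in leg muscle of mouse fetuses on embryonic day 18.5. The members are 10 of the 56262 genes in the count table, found by symbol after the Ensembl identifiers were matched to the GENCODE M21 annotation. They comprise the receptor subunit genes Chrna1, Chrnb1, Chrnd, Chrng and Chrne, the clustering genes Lrp4, Musk, Dok7 and Rapsn, and the acetylcholinesterase gene Ache. Total RNA was sequenced from 3 wild-type (WT) and 3 *SYISL* knockout (KO) leg muscle samples, with 82054811 to 102233181 counts per sample. *SYISL* is a long noncoding RNA that lies in an intron of Synpo2. The annotation names no gene *SYISL*, and its loss was not checked in these counts. Parents of each litter shared 1 genotype, so the genotypes of fetus and dam cannot be told apart, and no treatment was given in the labels of these samples. The strain, the litters and whether a sample is 1 fetus or a pool are not given in the sources used here, so p-values measure the spread between these samples, which may be technical.

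The motor endplate is the patch of muscle membrane under the motor nerve terminal. Agrin released by the nerve binds LRP4, which activates the kinase MuSK, and DOK7 and rapsyn then hold acetylcholine receptors in dense clusters. Each receptor is built from alpha, beta and delta subunits plus either the gamma subunit, which fetal muscle uses, or the epsilon subunit, which replaces it around and after birth. Before and without innervation the receptor genes are transcribed along the whole fibre, while at mature endplates only the nuclei under the nerve do so, and Chrne is the subunit gene most tied to these nuclei. Acetylcholinesterase ends each signal by splitting acetylcholine.

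In KO muscle the epsilon subunit gene Chrne was 2.55-fold higher than in WT muscle, and it was the only member to be called, which took a change of more than 1.5-fold together with p below 0.05 after Benjamini-Hochberg adjustment over 22071 genes (edgeR quasi-likelihood test). Thus 1 of 10 members was called higher and 0 lower, where 8.31% and 8.39% of all genes tested were called higher and lower, so the number of calls does not set the members apart from other genes (16.7% of all genes were called in either direction). By the adjusted p alone, 6 members differed, 5 higher and 1 lower, against 45% of all genes, 21.9% higher and 23.1% lower. Values of the genotypes did not overlap for 8 of the 10 members, against 55.9% of all genes. The median log2 fold change of the members was 0.18, that of all genes tested was -0.004 and that of 11 muscle fibre genes was 0.88. All directions given here for Chrna1, Chrnb1, Chrnd, Musk, Dok7, Rapsn and Ache turn over when libraries are scaled to those fibre genes, as described further on. On that scale Chrne stayed higher in KO, but its log2 fold change was 0.46 and it was not called. In bulk tissue, fewer cells of a type and less RNA per cell cannot be told apart.

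**Figure D1:**
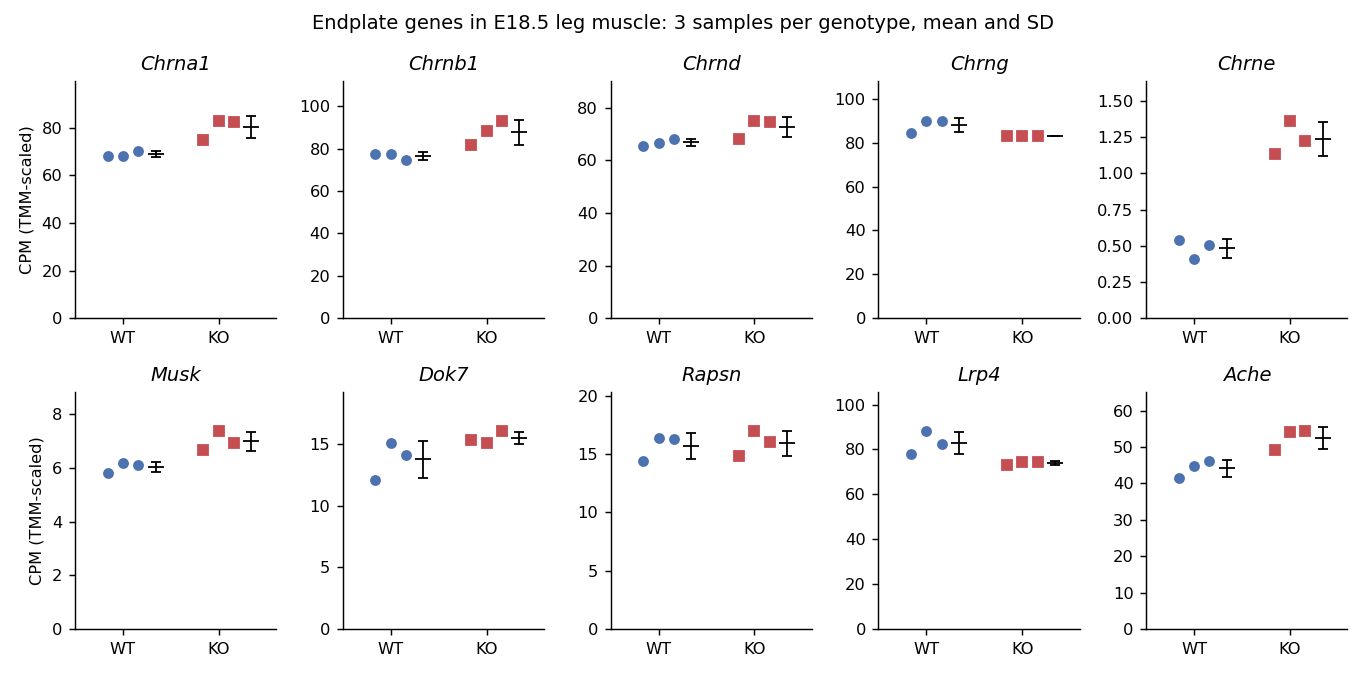
Level of each of the 10 endplate genes in CPM (a gene's count scaled by TMM to a library of fixed size, vertical axes starting at 0) in 3 WT (circles) and 3 KO (squares) leg muscle samples, with the mean and SD beside the points. Chrne lay between 0.411 and 0.539 CPM in WT and between 1.13 and 1.36 CPM in KO, while Chrnd and Rapsn overlapped between genotypes. The slight rises of Chrna1, Chrnb1, Musk and Ache are falls when libraries are scaled to muscle fibre genes.

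Upstream sequence of the receptor genes is shown because E-boxes (CANNTG), which myogenic factors such as myogenin bind, and the N-box (CCGGAA), which the ETS factor GABP binds, are motifs known in fetal and synaptic transcription of these genes. Of the 10 members, 7 had a promoter in the RefSeq table (GRCm38.p6). Chrnd, Rapsn and Lrp4 had none, so the delta subunit gene is absent here. For the other receptor genes, the 250 bases before the RefSeq start are given 5′ to 3′ on the gene's strand, with E-boxes and the N-box in capitals. They lie at chr2:73580339-73580588 on the minus strand for Chrna1, at chr11:69795938-69796187 on the minus strand for Chrnb1, at chr1:87205561-87205810 on the plus strand for Chrng and at chr11:70619195-70619444 on the minus strand for Chrne. For Chrng the annotation also has a transcript that starts upstream of this window, at base 87204657. The annotated start of Chrne, base 70619216, lies inside its window, which holds 22 bases of the gene's own exons. That of Chrnb1, base 69795943, also lies inside, with 6 such bases.
Chrna1: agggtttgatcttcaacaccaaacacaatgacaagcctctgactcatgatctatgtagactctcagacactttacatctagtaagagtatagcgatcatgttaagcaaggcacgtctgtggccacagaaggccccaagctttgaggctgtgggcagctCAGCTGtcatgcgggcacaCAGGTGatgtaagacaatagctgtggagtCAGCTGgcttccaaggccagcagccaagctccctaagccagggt
Chrnb1: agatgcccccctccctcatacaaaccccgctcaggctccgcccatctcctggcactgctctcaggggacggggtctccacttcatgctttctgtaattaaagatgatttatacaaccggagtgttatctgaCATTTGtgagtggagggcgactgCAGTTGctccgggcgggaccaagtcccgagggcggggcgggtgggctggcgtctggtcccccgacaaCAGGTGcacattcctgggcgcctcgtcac
Chrng: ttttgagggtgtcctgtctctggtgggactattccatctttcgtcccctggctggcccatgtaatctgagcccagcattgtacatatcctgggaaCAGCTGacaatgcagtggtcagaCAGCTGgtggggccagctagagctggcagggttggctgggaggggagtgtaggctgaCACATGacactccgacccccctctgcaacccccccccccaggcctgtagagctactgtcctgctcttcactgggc
Chrne: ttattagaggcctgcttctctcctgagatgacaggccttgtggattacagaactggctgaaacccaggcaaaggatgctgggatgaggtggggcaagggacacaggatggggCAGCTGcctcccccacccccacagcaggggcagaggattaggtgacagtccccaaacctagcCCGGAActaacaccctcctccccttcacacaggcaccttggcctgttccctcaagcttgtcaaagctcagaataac
Both strands were searched, and the E-box form CAGCTG is a subset of CANNTG. The Chrna1, Chrnb1 and Chrng windows each hold 3 E-boxes, of which 2 read CAGCTG in Chrna1 and 2 in Chrng. The Chrne window holds 1 E-box, CAGCTG at bases -138 to -133 from the RefSeq start. It also holds the only N-box in the windows of the 7 members, CCGGAA at bases -76 to -71 from that start. Among 32851 RefSeq windows of the same length, 66.2% held an E-box, 13% held CAGCTG and 12% held the N-box. These are matches of letters only and say nothing of what was bound in this muscle.

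Chrna1 encodes the alpha subunit, which carries most of the acetylcholine binding site (ENSMUSG00000027107.3, mm10 chromosome 2, 73563215 to 73580338). Its level was 68.1, 68.1 and 70.4 CPM in WT and 74.8, 83.0 and 82.5 CPM in KO. The KO samples all lay above the WT samples, and KO replicate 1 was the lowest of the 3. The log2 fold change was 0.22 ± 0.05 (SE, n = 3 per genotype, 95% interval 0.11 to 0.32, adjusted p = 0.00423 in edgeR), a rise of 16.3%. Chrnb1, the beta subunit gene (ENSMUSG00000041189.9, chromosome 11, 69784036 to 69795943), had 77.6, 77.6 and 74.5 CPM in WT and 81.5, 88.5 and 93.2 CPM in KO. Again no KO sample reached down to the WT range, and the log2 fold change was 0.20 ± 0.05 (SE, adjusted p = 0.0112 in edgeR), which lost the threshold without WT replicate 3 or KO replicate 3 (highest adjusted p = 0.0525). For Chrnd, the delta subunit gene (ENSMUSG00000026251.13, chromosome 1, 87190607 to 87200070), the values were 65.3, 66.7 and 68.2 CPM in WT and 68.2, 75.1 and 74.5 CPM in KO. The lowest KO value equalled the highest WT value to the digits printed, and the log2 difference of 0.12 ± 0.05 (SE, adjusted p = 0.0538 in edgeR) did not pass.

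Chrng, the fetal gamma subunit gene (ENSMUSG00000026253.14, chromosome 1, 87204657 to 87212694), had 84.6, 90.1 and 90.1 CPM in WT and 83.2, 83.1 and 83.1 CPM in KO. All KO values lay below the WT values, by little, and the log2 difference was -0.09 ± 0.04 (SE, 95% interval -0.17 to -0.002, adjusted p = 0.0905 in edgeR), which did not pass. The spread of the KO samples was 0.0577% of their mean, less than the 1.12% that counting alone gives on average at this depth, so the SD of 0.0479 CPM is not a measure of the error of this gene. Chrng had 7444 to 9512 counts per library.

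Chrne, the adult epsilon subunit gene (ENSMUSG00000014609.16, chromosome 11, 70614883 to 70619216), had 51, 34 and 53 counts in WT and 106, 130 and 119 counts in KO. On the CPM scale these are 0.539, 0.411 and 0.502 in WT and 1.13, 1.36 and 1.22 in KO. Their means were 0.484 ± 0.0655 and 1.24 ± 0.117 CPM (SD, n = 3). The lowest KO value lay well above the highest WT value, and the log2 fold change was 1.35 ± 0.16 (SE, 95% interval 0.998 to 1.70, adjusted p = 9.7e-05 in edgeR). At these counts the spread among replicates, 13.5% of the mean in WT and 9.47% in KO, was close to that of counting alone, 14.7% and 9.19%. With any 1 sample left out the log2 fold change stayed between 1.25 and 1.43. With libraries scaled to muscle fibre genes it was 0.46, under 1.5-fold and not called. The gene 4930544D05Rik lies within the Chrne span on the opposite strand, shares 0 exon bases with it and had 5 to 22 counts per library.

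Dividing CPM by the length of all annotated exons puts the subunits on 1 scale of level. In WT the mean levels were 30.3 CPM per kb for Chrnb1, 21.2 for Chrng, 20.3 for Chrnd, 15.7 for Chrna1 and 0.286 for Chrne. Chrng and Chrnd overlapped in that order and the other neighbours did not. In KO the order was Chrnb1 at 34.7, Chrnd at 22.1, Chrng at 20.0, Chrna1 at 18.3 and Chrne at 0.733 CPM per kb, with no overlap between neighbours. The order of the upper 4 depends on the length taken as a gene's own, because Chrna1 and Chrnb1 were the 2 highest per kb of coding sequence, and Chrne was the lowest under each of the 3 lengths tried.

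The ratio of gamma to epsilon transcript per kb of exon, computed within each library and so free of library scaling, was 63.1, 87.6 and 72.2 in WT and 29.7, 24.6 and 27.5 in KO. Its mean was 74.3 ± 12.4 (SD, n = 3) in WT against 27.3 ± 2.55 in KO, and the geometric mean was 2.71-fold lower in KO. The genotypes did not overlap, and the log2 difference of -1.44 had p = 0.1 in a two-sided exact permutation test over samples, the smallest p that 3 against 3 allows (adjusted p = 0.1 over 3 ratios). In both genotypes the gamma transcript exceeded the epsilon transcript in every sample. Per kb of coding sequence the mean ratio was 142 in WT and 52.3 in KO, and per kb of the longest coding transcript, a length chosen after seeing the data, it was 106 and 39.0, with the same log2 difference.

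Setting each exchanged subunit against the mean of Chrna1, Chrnb1 and Chrnd shows how the difference is made up. The log2 ratio of gamma to these shared subunits was -0.06, 0.02 and 0.02 in WT and -0.17, -0.31 and -0.33 in KO, a difference of -0.26 (exact permutation p = 0.1, adjusted p = 0.1). The log2 ratio of epsilon to the shared subunits was -6.04, -6.43 and -6.16 in WT and -5.06, -4.93 and -5.11 in KO, a difference of 1.17 (exact permutation p = 0.1, adjusted p = 0.1). Neither ratio overlapped between genotypes, and the larger part of the shift in the gamma to epsilon ratio lay with epsilon.

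**Figure D2:**
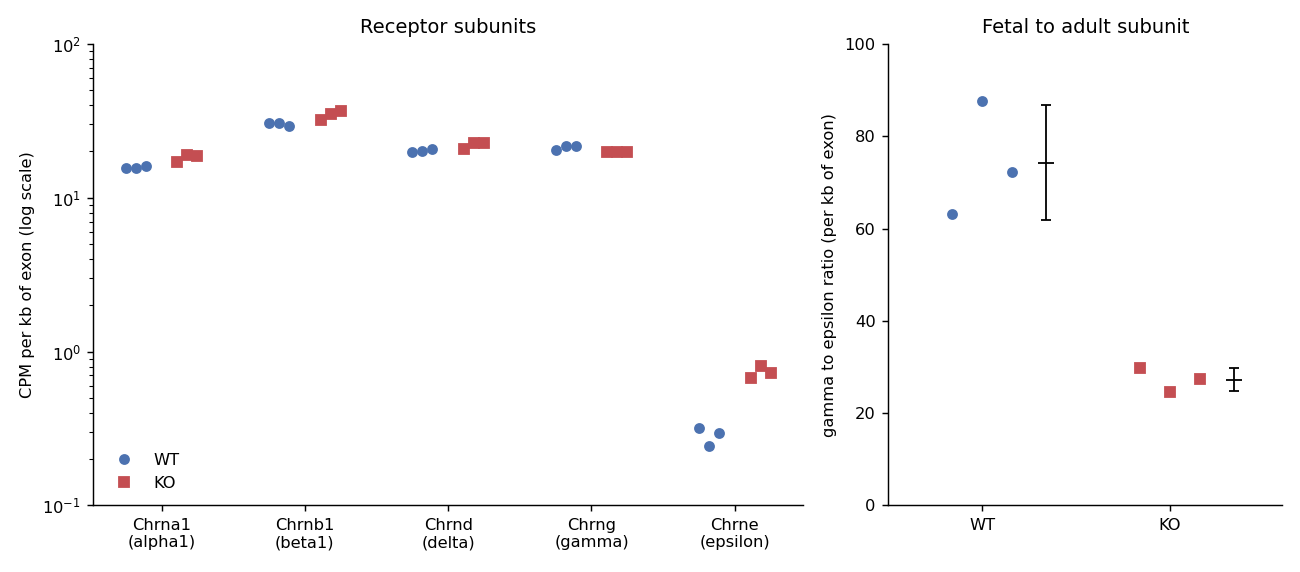
Left, level of the 5 receptor subunit genes in CPM per kb of exon (log axis) in 3 WT (circles) and 3 KO (squares) samples. Right, ratio of gamma to epsilon level per kb of exon in each sample, with the mean and SD. It lay between 63.1 and 87.6 in WT and between 24.6 and 29.7 in KO.

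The clustering genes differed by less than 1.5-fold between genotypes. Lrp4, the agrin receptor on muscle (ENSMUSG00000027253.15, chromosome 2, 91457511 to 91513779), had 78.0, 88.1 and 82.5 CPM in WT and 73.1, 74.2 and 74.4 CPM in KO. It was the only member lower in KO at the adjusted p, with every KO sample below every WT sample and a log2 fold change of -0.16 ± 0.05 (SE, adjusted p = 0.0176 in edgeR). Without WT replicate 2 or KO replicate 3 this adjusted p reached up to 0.0566. The summed keratinocyte markers were also lower in KO, at 685 to 791 CPM against 16085 to 24222 CPM in WT. The part of these cells in the Lrp4 values was not tested. Musk, the kinase that LRP4 activates (ENSMUSG00000057280.15, chromosome 4, 58285960 to 58374303), had 5.81, 6.17 and 6.09 CPM in WT and 6.67, 7.37 and 6.93 CPM in KO. The genotypes did not overlap and the log2 fold change was 0.21 ± 0.07 (SE, adjusted p = 0.0296 in edgeR). However, the adjusted p of Musk passed in only 10 of 17 settings, among them the main fit and a repeat on the same counts. In 1 of the 10, scaling to fibre genes, Musk fell. With 1 sample left out the adjusted p reached 0.106, and it did not pass without WT replicate 1, WT replicate 3, KO replicate 2 or KO replicate 3.

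Dok7, the adaptor that MuSK needs for full activity (ENSMUSG00000044716.12, chromosome 5, 35056766 to 35087839), had 12.1, 15.1 and 14.1 CPM in WT and 15.3, 15.1 and 16.03 CPM in KO. KO replicate 2 lay just above WT replicate 2, and the log2 difference of 0.17 ± 0.08 (SE, adjusted p = 0.119 in edgeR) did not pass. WT replicate 1 was the low sample, and the spread of Dok7 in WT, 11.0% of the mean, was the widest of the members after Chrne. Rapsn encodes rapsyn, which tethers receptors to the cytoskeleton (ENSMUSG00000002104.11, chromosome 2, 91035620 to 91045729), and had 14.4, 16.4 and 16.3 CPM in WT and 14.8, 17.0 and 16.04 CPM in KO. The genotypes overlapped throughout, and the 95% interval of the log2 difference, -0.14 to 0.19 around 0.02, corresponds to 0.905-fold to 1.14-fold for Rapsn (adjusted p = 0.843 in edgeR). The gene Gm13778, on the opposite strand, shares 4 exon bases with Rapsn, 0.222% of the Rapsn exons. It had 98 to 170 counts per library against 1355 to 1724 for Rapsn.

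Ache, acetylcholinesterase (ENSMUSG00000023328.14, chromosome 5, 137287519 to 137294466), had 41.5, 44.8 and 46.0 CPM in WT and 49.0, 54.1 and 54.3 CPM in KO. Every KO sample was above the WT samples, and the log2 fold change was 0.25 ± 0.05 (SE, 95% interval 0.13 to 0.37, adjusted p = 0.00463 in edgeR), a rise of 19.0% that passed under every scaling in that direction except the one to fibre genes. The long noncoding RNA gene Gm42456, on the opposite strand, shares 98 exon bases with Ache, 2.12% of the Ache exons, and had 9 to 26 counts per library against 3702 or more for Ache. The strand setting of the counting is not given in the sources used here, so reads in the shared bases cannot be assigned. Colq, whose product anchors acetylcholinesterase in the synaptic cleft and which was named after its values were seen, moved the other way, from 25.6 ± 0.29 to 21.7 ± 1.86 CPM (SD, n = 3; log2 fold change -0.23 ± 0.06, SE, adjusted p = 0.0145 in edgeR).

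Muscle fibre genes rose more than the endplate genes other than Chrne. Of 11 fibre genes, 10 were called higher and the eleventh, the calcium release channel gene Ryr1, passed the adjusted p at a log2 fold change of 0.52. Acta1, skeletal alpha-actin, was the furthest from 0 at 1.47 ± 0.11 (SE, adjusted p = 4.6e-06 in edgeR), and Des, desmin, was at 1.06 ± 0.09 (SE, adjusted p = 9.96e-06). Their summed level was 12478 to 13347 CPM in WT and 24604 to 29698 CPM in KO. Apart from Chrne, each member's 95% interval lay below the fold change of every fibre gene. When libraries were scaled to the geometric mean of the fibre genes, in place of all genes, the median log2 fold change of all genes moved to -0.89, and 9 members were called lower, as were 77.3% of all genes. On that scale Chrna1 was at -0.68, Chrng at -0.98 and Lrp4 at -1.06, and Chrne was at 0.46 (adjusted p = 0.0248 in edgeR), under 1.5-fold, where 1.26% of all genes were called higher. Relative to the shifted median of all genes these log2 values are 0.22, -0.08, -0.16 and 1.35. They come back near those under the usual scaling by construction, because the fibre scaling moves all genes by about the same amount.

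**Figure D3:**
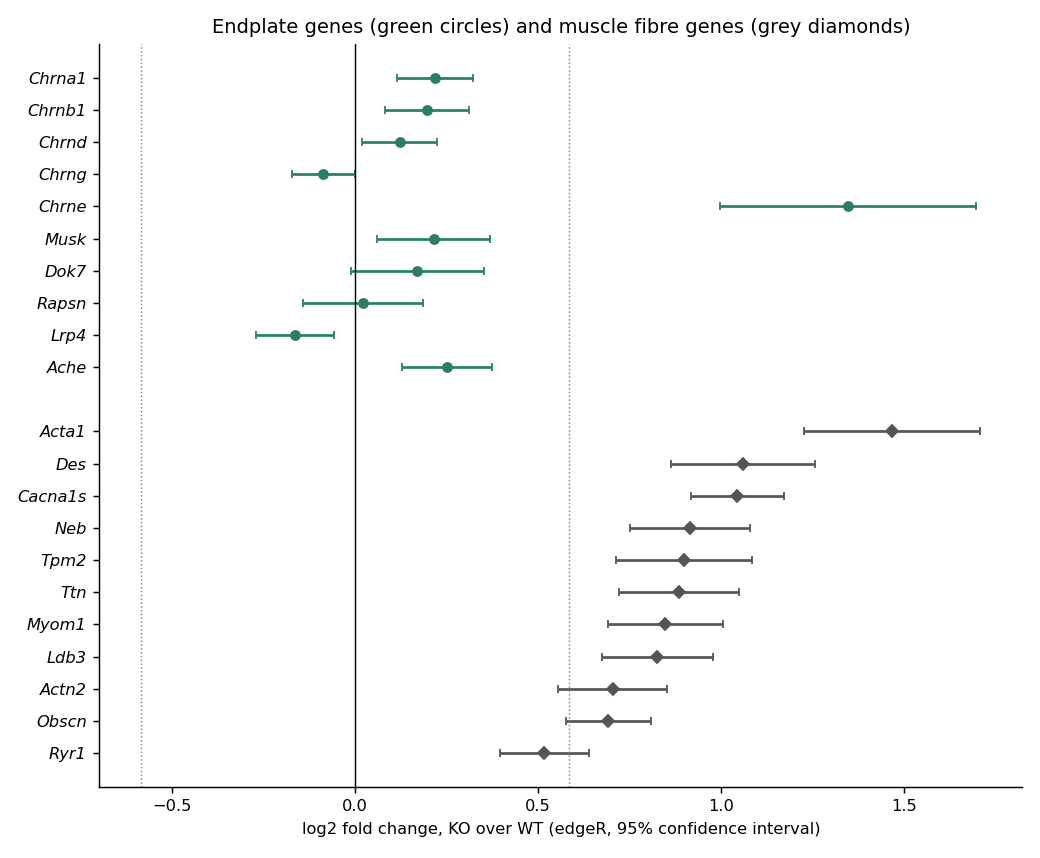
Log2 fold change of KO over WT with its 95% confidence interval (edgeR, 3 samples per genotype) for the 10 endplate genes (circles) and 11 muscle fibre genes (diamonds), with dotted lines at 1.5-fold. Chrne at 1.35 lies among the fibre genes (0.52 to 1.47) and the other members lie between -0.16 and 0.25. Scaling to the fibre genes moves the median of all genes to -0.89 and turns the members on the right of 0 to the left, except Chrne.

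Markers of other cells also differed between the genotypes. Of all genes tested, 8.31% were called higher and 8.39% lower, and 21.9% were higher and 23.1% lower at the adjusted p alone. The 9 keratinocyte genes were all called lower in KO, with a summed level of 16085 to 24222 CPM in WT and 685 to 791 CPM in KO, and the 6 red blood cell genes were all called lower, from 3934 to 5174 CPM in WT to 546 to 665 CPM in KO. Schwann cells wrap the motor axon and cap its terminal, and 6 of their 7 marker genes were higher at the adjusted p, with 1 called and sums of 352 to 358 CPM in WT and 473 to 513 CPM in KO. Of 4 motor neuron genes, Mnx1 had at most 1 count in any library, and 1 of the 3 tested was called lower. This was the neurofilament gene Nefl at -1.11 (adjusted p = 6.77e-05 in edgeR), while Isl1 was at -0.34 (adjusted p = 0.0486) and Nefh at -0.01 (adjusted p = 0.972). The sum of the list was 6.80 to 7.997 CPM in WT and 3.99 to 5.004 CPM in KO, where Nefl alone had means of 4.69 and 2.17 CPM. Motor neuron cell bodies lie outside this tissue, and the acetylcholine synthesis gene Chat also had 0 or 1 count per library. The list is therefore not a measure of motor neurons here, and which cells gave the Nefl and Isl1 counts was not tested. Of 5 fibroblast genes, 4 were higher at the adjusted p and none was called. The sum of the 5 was 28236 to 31224 CPM in WT and 34380 to 35516 CPM in KO. The part of these other cells in the values of the endplate genes was not tested.

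Around the members, 72 partner genes of the endplate were listed by role, of which 66 passed the low-count filter. Of these, 7 were called higher and 4 lower, against 8.31% and 8.39% of all genes tested. By the adjusted p alone 24 were higher and 17 lower, against 21.9% and 23.1% of all genes, and the median log2 fold change was 0.01. Scaled to the fibre genes, 1 partner was called higher and 52 of 66 lower, where 1.26% of all genes were called higher and 77.3% lower.

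In the agrin and MuSK signalling list 1 of 12 genes was called, Pak1, a kinase that acts on the actin cytoskeleton, at 43.9, 40.6 and 43.1 CPM in WT and 72.8, 82.8 and 81.5 CPM in KO (log2 fold change 0.89 ± 0.06, SE, adjusted p = 1.71e-06 in edgeR). The median of the list was -0.04. Agrn, the agrin gene itself, had means of 169 ± 11.6 CPM (SD, n = 3) in WT and 171 ± 6.64 CPM in KO (adjusted p = 0.867), while the cortactin gene Cttn, at -0.11 (adjusted p = 0.0518), and the kinase gene Abl1, at -0.01 (adjusted p = 0.875), also did not pass in edgeR. Agrn is transcribed in muscle and other cells as well as in nerve, and gene counts do not separate the nerve isoform.

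Of 12 postsynaptic scaffold genes, 3 were called higher and 1 lower, against 8.31% and 8.39% of all genes tested. At the adjusted p 8 were higher and 1 lower, against 21.9% and 23.1% of all genes, and the median was 0.26. Dtna, alpha-dystrobrevin, had 43.8, 40.5 and 43.7 CPM in WT and 83.0, 100.3 and 101.1 CPM in KO (log2 fold change 1.15 ± 0.07, SE, adjusted p = 2.15e-06 in edgeR). It belongs to the dystrophin complex, which lines the whole fibre membrane as well as the endplate, and all KO samples lay above the WT samples, with KO replicate 1 the lowest of the 3. Sntb1, a beta-syntrophin, was 1.54-fold higher (adjusted p = 7.08e-06). Dtnb, beta-dystrobrevin, lay lower at 12.0, 10.8 and 10.6 CPM in KO against 16.3, 18.8 and 17.0 CPM in WT (-0.64 ± 0.08, SE, adjusted p = 0.000107 in edgeR). Plec and Dag1, for plectin and dystroglycan, rose at the adjusted p by 0.30 and 0.31 on the log2 scale, and Prkar1a, a regulatory subunit of protein kinase A, was at 0.04 (adjusted p = 0.548).

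Of 11 basal lamina genes, 6 were higher and 3 lower at the adjusted p, against 21.9% and 23.1% of all genes tested. Only Col4a6, a type IV collagen chain, was called, at 6.01, 7.66 and 6.39 CPM in WT and 3.17, 3.05 and 2.92 CPM in KO (log2 fold change -1.13 ± 0.10, SE, adjusted p = 1.77e-05 in edgeR). This chain is also made under the epidermis, and the fall of the keratinocyte sum from 16085 CPM or more to 791 CPM or less stands beside it. The part of the keratinocytes was not tested. Lamb2, the laminin chain concentrated at the synapse, rose by 0.26 ± 0.04 (SE, log2, adjusted p = 0.000393 in edgeR), Lama4 by 0.22 and Hspg2, perlecan, by 0.20.

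Neuregulin receptors were lower in KO. Of 7 genes in the list of neuregulin signalling and ETS factors, 4 were lower and 0 higher at the adjusted p, against 23.1% and 21.9% of all genes. The list had 1 called gene and a median of -0.33. Erbb3 had 94.2, 110.5 and 102.1 CPM in WT and 64.9, 60.8 and 62.5 CPM in KO (log2 fold change -0.70 ± 0.06, SE, adjusted p = 9.84e-06 in edgeR). Erbb2 had 70.3, 87.7 and 76.4 CPM in WT and 53.1, 52.1 and 52.5 CPM in KO, and at -0.57 ± 0.07 (SE, adjusted p = 0.000148) it fell just short of 1.5-fold. Erbb2 and Erbb3 are also expressed in epidermis, and Erbb3 in Schwann cells. The summed keratinocyte markers were lower in KO and those of Schwann cells higher, and their part in these values was not tested. The ETS factor gene Gabpa, whose product binds the N-box, was at -0.06 ± 0.05 (SE, adjusted p = 0.348), and Etv5 was at -0.02 (adjusted p = 0.82).

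Among 9 genes that respond to muscle activity or denervation, 1 was called higher and 1 lower. Dach2, a repressor that sits between histone deacetylases and myogenin, had 0.877, 1.25 and 1.09 CPM in WT and 0.629, 0.556 and 0.617 CPM in KO (log2 fold change -0.83 ± 0.17, SE, adjusted p = 0.00292). The myogenic factor genes Myog and Myod1, whose products bind E-boxes, were lower at the adjusted p by -0.22 each, and Ncam1, an adhesion molecule of denervated fibres, was higher at 0.28 ± 0.04 (SE, adjusted p = 0.000462 in edgeR).

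Of 5 genes for making and breaking acetylcholine outside the members, the synthesis gene Chat had 0 or 1 count per library and the vesicle transporter gene Slc18a3 had 0 to 3, which leaves both at or under the floor of 3 counts used here. Motor neuron cell bodies lie in the spinal cord, outside this tissue. Bche, butyrylcholinesterase, had 18.6, 15.4 and 18.3 CPM in WT and 30.7, 36.9 and 37.4 CPM in KO (log2 fold change 1.01 ± 0.09, SE, adjusted p = 2.17e-05 in edgeR). Prima1, which anchors cholinesterases to membranes, was at 0.52 ± 0.15 (adjusted p = 0.0186), and the choline transporter gene Slc5a7 at 0.51 ± 0.19 (adjusted p = 0.0587) did not pass.

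Of 11 genes for nicotinic subunits of nerve and sensory cells, 4, Chrna2, Chrna3, Chrna6 and Chrnb3, did not reach the filter. Chrna9, a subunit known from cochlear hair cells, was called, with 2.08, 1.31 and 2.10 CPM in WT and 6.96, 9.61 and 9.73 CPM in KO. Its log2 fold change of 2.25 ± 0.19 (SE, adjusted p = 1.06e-05 in edgeR) was the furthest from 0 among members and partners. Chrna4 went from 6.33 ± 0.524 to 4.52 ± 0.219 CPM (SD, n = 3, adjusted p = 0.00109 in edgeR), Chrna7 was also lower at the adjusted p (-0.50) and Chrnb2 higher (0.38). Of 5 glycosylation enzymes whose loss causes congenital myasthenia, none was called and 2 were lower at the adjusted p. Alg2 was at -0.11 and the other at -0.25, the lowest of the list. Gfpt1 was at -0.002 ± 0.04 (SE, adjusted p = 0.98 in edgeR).

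**Figure D4:**
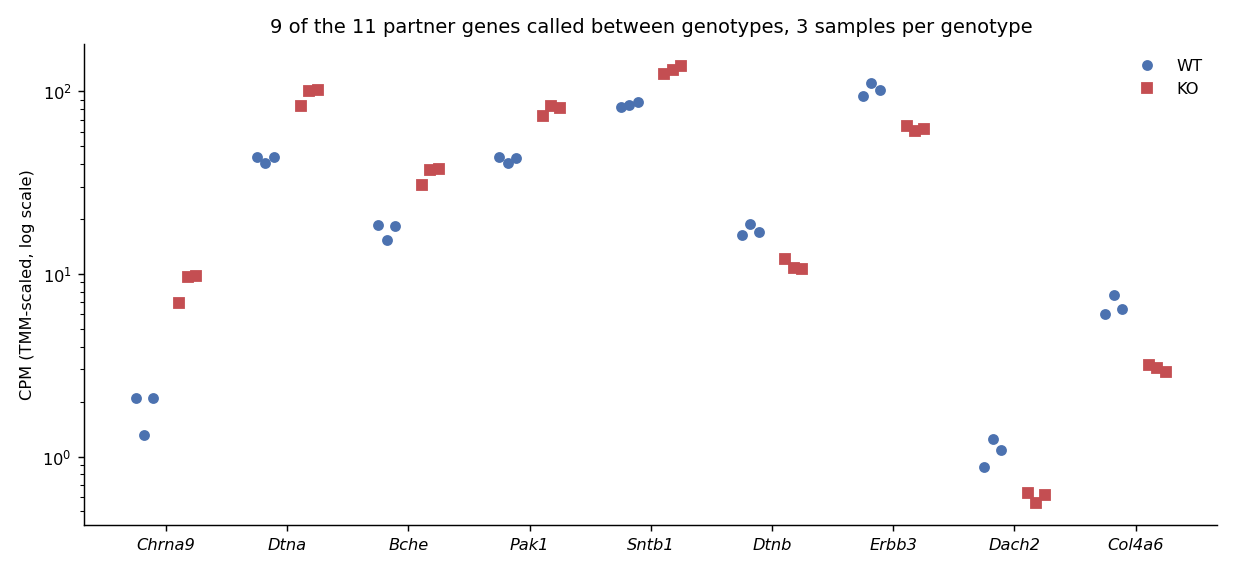
CPM (TMM-scaled, log axis) in 3 WT (circles) and 3 KO (squares) samples of 9 of the 11 partner genes called between genotypes, ordered from the largest rise, Chrna9, to the largest fall, Col4a6. The genes were drawn because they were called. None of them overlaps between genotypes, and neither do 55.9% of all genes tested. Scaled to muscle fibre genes, 1 partner gene was called higher and 52 of 66 lower, against 77.3% of all genes called lower.

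**Figure D5:**
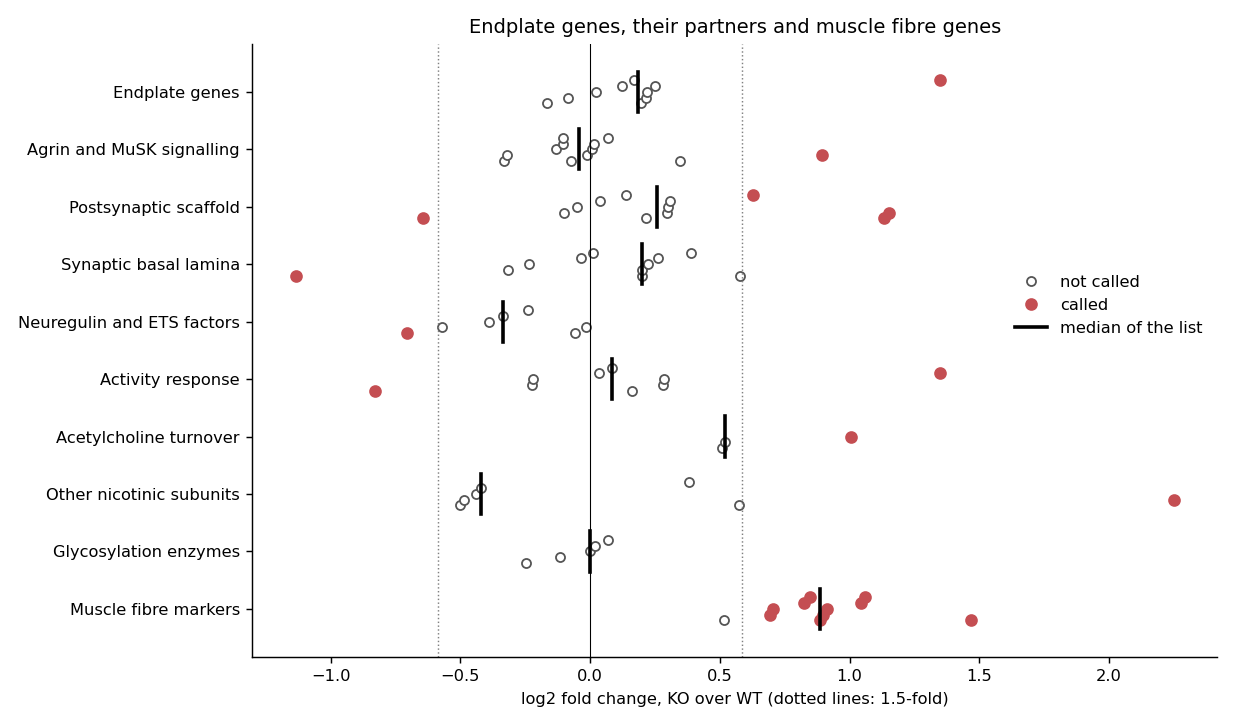
Log2 fold change of KO over WT (edgeR, 3 samples per genotype) of each tested gene in the endplate genes, the 8 partner lists and the muscle fibre markers, with called genes filled, list medians as bars and dotted lines at 1.5-fold. List medians lie between -0.42 and 0.52 for the partners and at 0.88 for the fibre markers. Scaling to the fibre genes moves all points left by about the shift of the median of all genes, to -0.89.

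The genes whose levels followed Chrng and Chrne most closely over the 6 samples are given as a description, by Pearson's r of log2 CPM among 12362 genes with a mean of 5 CPM or more. For Chrng they were Ap3s2 (r = 0.997), Rpusd2 (r = 0.997) and Alpl (r = 0.991), and for Chrne they were Npepl1 (r = 0.9999), Cdo1 (r = 0.999) and Txnip (r = 0.999). The 6 samples fall into 2 groups, so r mixes the difference between genotypes with the spread within them.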

How the data were processed

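RNA-seq counts of leg muscle from E18.5 fetuses, 3 WT and 3 KO, were used. Per the labels and methods, the authors trimmed 150 bp paired-end reads with Trim Galore 0.6.6, mapped them to mm10 with HISAT2 2.2.1 and deposited raw counts per gene from featureCounts 2.0.1. Gene annotation, strand setting and the counting of reads or pairs are not given in the sources used here. The series and per-sample tables differed in 0 values, and 55227 of 56262 gene IDs were found in GENCODE M21.

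Counts were tested in R 4.3.3 with edgeR 4.0.16 (filterByExpr, TMM, quasi-likelihood F-test on genotype, Benjamini-Hochberg over 22071 genes). Calls needed a change of more than 1.5-fold, the study's threshold, with an adjusted p below 0.05. Intervals are 95% from the same fit. Subunit ratios used counts per kb with 0.5 added and a two-sided exact permutation test. DESeq2 1.42.0, limma 3.58.1 (voom), other scalings and filters and left-out samples were alternatives. The test was checked on simulated data, where genes at low levels such as that of Chrne were recovered less often than others. The pass criterion of that check was restricted to genes above 5 CPM after low-level genes failed it, with the test left as it was. Same-numbered WT and KO samples were not treated as paired (correlations of deviations -0.20, -0.13 and 0.05). All replicates differed by more than sampling noise (mean chi-square per gene 4.85 to 32.9). Members and lists were chosen with earlier results of these data known. Named genes are the members, the marker genes, all called partners and up to 3 further partners per list by mean CPM, the 3 genes most like Chrng and Chrne, and genes overlapping member exons. The gene 4930544D05Rik, inside the Chrne span, is named as well. A few genes of the lists enter the counts and medians but are not reported here by name.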

Additional observations from a re-analysis of the deposited data

How the results depend on the processing

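Chrne kept its direction and its adjusted p under 0.05 in all 17 settings. These include the main fit and a fit of the per-sample counts, which equal those of the series and had to give the same result. Under fibre scaling its log2 fold change was 0.46 (adjusted p = 0.0248 in edgeR), and it was not called. Chrna1 and Ache passed the adjusted p in all 17 but turned to falls under fibre scaling, and the others passed in fewer. Scaled to muscle fibre genes, 0 members were called higher and 9 lower, and 1 and 52 partners, against 1.26% and 77.3% of all genes. With no fold-change threshold, 5 members were called higher and 1 lower, and 24 and 17 partners, against 21.9% and 23.1% of all genes. With a fold change over 2, 1 partner was called lower. Under fibre scaling the log2 fold changes that turned were -0.68 (Chrna1), -0.70 (Chrnb1), -0.77 (Chrnd), -0.68 (Musk), -0.72 (Dok7), -0.88 (Rapsn) and -0.64 (Ache), by construction of that scaling, since the fibre genes rose. Rapsn, which did not pass in the usual fit, also turned to -0.048 with library size only, to -0.038 without WT replicate 1 and to -0.026 without KO replicate 2 (with 1 sample left out, -0.038 to 0.076), where the cause was not tested. With 1 sample left out, called members stayed at 1 higher and 0 lower, called partners at 7 to 8 higher and 4 to 6 lower, and the gamma to epsilon log2 difference at -1.55 to -1.31, where the exact permutation test gave 0.2, the smallest p for 3 against 2. With the replicate number as a block, 1 member was called, Chrne at 1.35 (adjusted p = 0.00106 in edgeR), and 7 and 4 partners, so the block changed no call; the samples share only a number. Low counts limit Chrne, at 34 to 130 per library.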
